A study of Mus musculus with 6 samples.

Results

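The 10 genes described here encode NF-κB subunits (Nfkb1, Nfkb2, Rela and Relb), feedback inhibitors of NF-κB (Nfkbia and Tnfaip3) and inflammatory cytokines (Tnf, Il6, Il1b and Lif). They were picked by name as genes of 1 signalling system, with earlier results of these data known. Each has 1 row among the 30315 genes of the deposited expression table. Of the 10, 9 had a mean of at least 1 FPKM over all libraries and were tested, and Il6 did not reach that level.

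RNA-Seq was performed on primary renal tubular epithelial cells (TECs) of C57BL/6 mice, the cells that line the kidney tubule, kept as a primary culture. The siSox9 group, with 3 libraries, received a small interfering RNA (siRNA) against Sox9, a transcription factor of regenerating tubule cells, and the siNC group, with 3 libraries, received a control siRNA. The siRNAs were transfected 12 h before hypoxia and reoxygenation (H/R), a culture model of ischemic kidney injury made of 6 h at 1% oxygen without glucose and 18 h of reoxygenation. Both groups went through H/R, each received 1 siRNA, and no library without H/R was part of the comparison, so the values say how the groups differed after the injury and not what the injury did.

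The level of Sox9 transcripts was 8.93, 8.61 and 9.07 FPKM in the siSox9 libraries and 25.7, 26.5 and 25.6 FPKM in the siNC libraries, a change of -65.8% (limma, adjusted p = 7.03e-06). FPKM is the fragment count scaled to exon length and to the mapped reads of the library, so levels of different genes can be compared. The libraries held 23893197 to 25725743 reads, recovered from the FPKM values. Markers of tubule epithelium were present (summed 3643 to 3961 FPKM over all libraries), although Slc34a1, the phosphate transporter of the proximal tubule, was near 0 in both groups. Of the 8 tubule markers tested, Cdh16, a cadherin of tubule epithelium, rose by 28.4% (limma, adjusted p = 0.000307) and 7 did not pass. Of these 7, Lrp2 passed with limma voom on the recovered reads (adjusted p = 0.0344). Krt18 passed with limma voom without a filter on low genes (adjusted p = 0.0268). Both were higher with siSox9. Mitochondrial transcripts took 8.05% to 8.76% of the summed FPKM with siSox9 and 6.98% to 7.20% with siNC, and Gm23935 was the most abundant transcript in siNC replicates 2 and 3 alone, with 3.72% and 6.35%. Nothing in the labels says that the libraries of a group came from separate cultures, so the p-values measure the spread between these libraries, which may be technical. Of 12009 genes tested, 3650 (30.4%) passed an adjusted p under 0.05, 1532 (12.8%) higher and 2118 (17.6%) lower with siSox9, and this split became 1959 higher and 1765 lower when the libraries were centred on their medians. RNA from bulk cultures cannot tell fewer cells of a type from less RNA per cell.

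NF-κB is a family of transcription factors that bind DNA as dimers. In resting cells the dimers are held in the cytoplasm by IκB proteins such as the product of Nfkbia, and signals from TNF, IL-1 and Toll-like receptors activate the IKK kinases, which mark IκB for degradation. NF-κB then induces cytokine genes together with its own inhibitors, and in injured kidney tubules this response is known for recruiting leukocytes.

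The sites at which NF-κB binds carry the κB consensus, and the sequences around the best known members of this pathway are shown here because several of these genes are textbook targets of the factors that the other members encode. RefSeq promoter windows, from 250 bases before to 50 bases after a start site in GRCm38.p6, were found for 8 of the 10 genes, all but Nfkb1 and Relb. A match to the consensus, searched on both strands, was found in a window of 5 of the 8, namely Nfkb2, Nfkbia, Tnfaip3, Il6 and Lif. Some genes have several windows. Of all genes with a window 9.55% had a match, and of all 32851 windows 8.46% held one. The sequences below, 1 per gene, are 30 bases long, read 5′ to 3′ on the strand of the gene, with the matching bases in capitals.
Nfkb2, chr19:46304688-46304717, + strand: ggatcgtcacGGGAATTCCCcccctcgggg
Nfkbia, chr12:55492657-55492686, - strand: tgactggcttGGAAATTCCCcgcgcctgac
Tnfaip3, chr10:19015516-19015545, - strand: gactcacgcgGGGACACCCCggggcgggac
Il6, chr5:30013060-30013089, + strand: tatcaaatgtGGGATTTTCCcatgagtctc
Lif, chr11:4257380-4257409, + strand: atcaagtacaGGGACGCCCCctccccacac
Relative to the start site of its window, the match shown spans -39 to -30 in Nfkb2, where another match overlaps it at -38 to -29, -29 to -20 in Nfkbia, -44 to -35 in Il6 and -178 to -169 in Lif. In Tnfaip3 it spans -125 to -116 of an alternative start and lies inside the gene as the table places it. Further matches that are not shown lie at -11 to -2 in the same Nfkb2 window, at -236 to -227 and 11 to 20 of another Nfkb2 start, and at -12 to -3 in the Tnfaip3 window. No match was found in the windows of Rela, Tnf and Il1b. These matches describe letters and not binding, and genes with a match were found among those that rose with siSox9 (Nfkb2, Lif) and among those that did not pass the test (Nfkbia, Tnfaip3).

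After silencing of Sox9, transcripts of 3 of the 10 genes were higher, namely Nfkb2, Tnf and Lif, and none was lower. Their mean FPKM was 17.2%, 39.8% and 20.7% above siNC. Nfkb1, Rela, Relb, Nfkbia, Tnfaip3 and Il1b did not pass the test, and Il6 was near the detection limit in every library. Among the 9 genes tested, 3 were called, all of them higher. This is near the share of 30.4% called in either direction among all genes, of which 12.8% were higher. Of the 9 log2 fold changes 8 were above 0, beside 5567 of 12009 over all genes tested, with medians of 0.11 and -0.01. The groups did not overlap for 3 of the 9, a share below the background of 46.3%. Leaving out single libraries gave 3 or 4 members called higher and 0 called lower. Without siSox9 replicate 3 the members called were Nfkb2, Lif and Rela, and Tnf lost its call. Without the filter on low genes, 2 members were called higher, Nfkb2 and Lif, both with limma and with limma voom on the recovered reads. The groups also differed in their mitochondrial share and in Cdh16, whose part in these values was not tested, and the 3 calls were as above after median centring, after quantile normalization and with TPM.

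**Figure D1:**
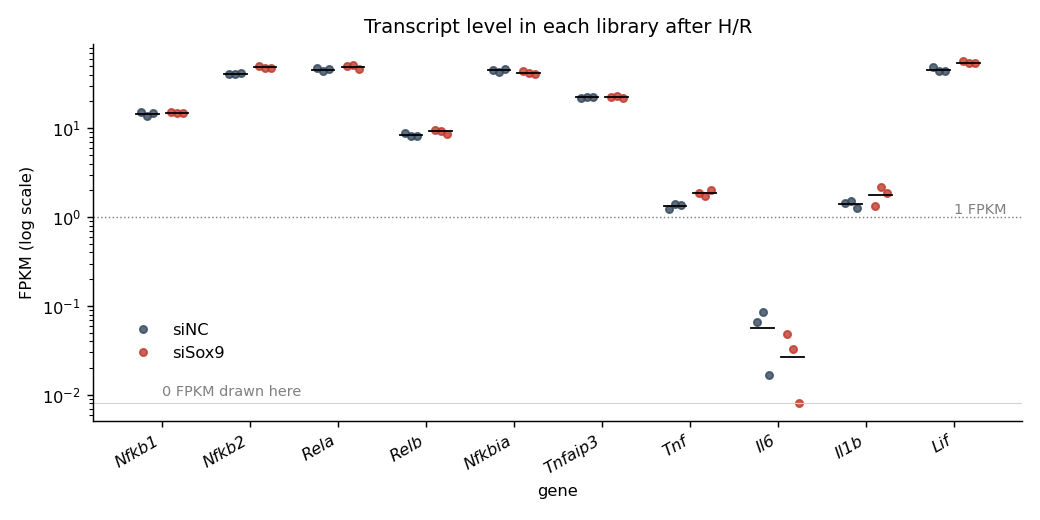
Transcript level in FPKM (log axis) of the 10 genes in each library, with siNC in dark blue, siSox9 in red and the group mean as a black line. The siSox9 points of Nfkb2, Tnf and Lif all lie above their siNC points, and Il6 lies under 0.1 FPKM in all 6 libraries, with its value of 0 drawn at the grey line.

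Among the subunits, Nfkb2 rose. Nfkb2 (ENSMUSG00000025225, chromosome 19 from 46304737 to 46312090 on the + strand) encodes p100, which both restrains RelB and is cut to the DNA-binding subunit p52 of the non-canonical pathway. Its level was 49.8, 47.6 and 47.5 FPKM with siSox9 and 41.0, 40.4 and 42.1 FPKM with siNC. Every siSox9 library was above every siNC library. The means were 48.3 ± 1.28 and 41.2 ± 0.88 FPKM (SD, n = 3), with a log2 fold change of 0.22 ± 0.03 (SE, limma, adjusted p = 0.00266). GENCODE M21 places the gene from 46304320 to 46312385, which differs from the positions above. Its exons there share 299 bases with exons of Psd on the opposite strand, where Psd had a mean of 2.02 FPKM. They also share 531 bases with AC114539.1, which had no FPKM value. Whether reads were counted by strand is not given in the sources used here.

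Rela encodes p65, the main activating subunit of the canonical pathway. Its level was 50.2, 51.5 and 46.1 FPKM with siSox9 and 47.2, 43.9 and 46.0 FPKM with siNC. The third siSox9 library lay within the siNC range. The log2 fold change was 0.11 with a 95% confidence interval of -0.01 to 0.22 (limma, adjusted p = 0.147), and without siSox9 replicate 3 it was 0.15 and passed (adjusted p = 0.0449, with 0.0449 to 0.374 over all alternatives). Relb encodes the partner of p52. It stood at 9.56, 9.37 and 8.68 FPKM with siSox9 and at 8.89, 8.19 and 8.18 FPKM with siNC. The ranges overlapped through siSox9 replicate 3 and siNC replicate 1, and the log2 fold change of 0.11 did not pass (limma, adjusted p = 0.122).

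Nfkb1, which encodes p105 and its processed form p50, had 15.0, 15.0 and 14.8 FPKM with siSox9 and 15.0, 13.7 and 14.8 FPKM with siNC. The ranges overlapped. Its log2 fold change was 0.04, with a 95% interval of -0.05 to 0.14 (limma, adjusted p = 0.466). Rel, the remaining subunit and best known from lymphocytes, had the lowest level of the family, at 2.04 ± 0.135 FPKM with siSox9 and 1.91 ± 0.0558 FPKM with siNC (SD, n = 3), and did not pass the test (limma, adjusted p = 0.460).

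The make-up of the family was also compared within each library, which does not depend on how libraries are scaled. Rela and Nfkb2 together made up most of the summed subunit FPKM. Nfkb2 took 39.3%, 37.9% and 39.8% of the sum with siSox9 and 36.0%, 37.4% and 37.3% with siNC. All siSox9 shares were higher, by 2.16 percentage points on average. Nfkb1 took 11.9%, 12.0% and 12.4% with siSox9 and 13.2%, 12.7% and 13.0% with siNC, and all its siSox9 shares were lower. Both differences had an exact two-sided permutation p of 0.1, the smallest that 3 libraries against 3 can give. The shares of Rela, Relb and Rel overlapped between the groups, with exact permutation p-values of 0.3, 0.6 and 0.6. The shares were chosen after the levels had been seen and the p-values were not adjusted over the 12 shares computed here and for the IL-6 family.

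**Figure D2:**
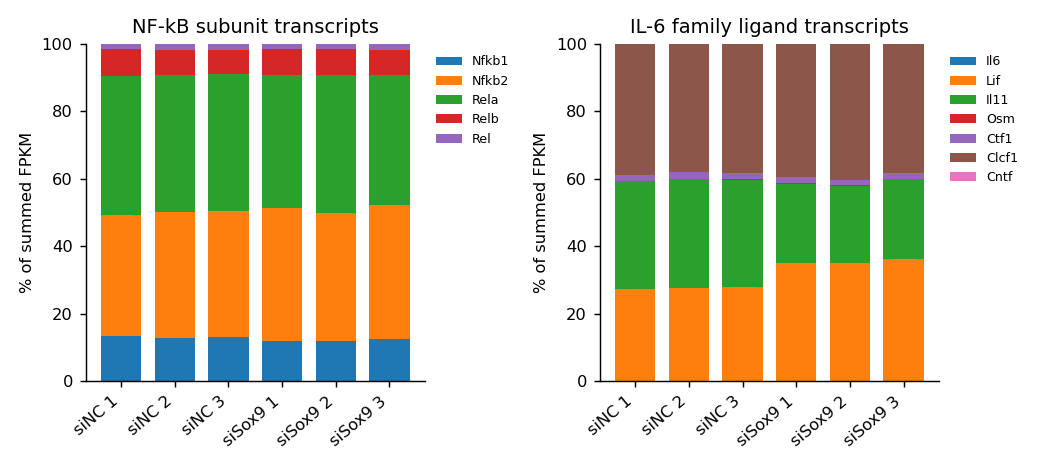
Share of the summed FPKM (%) that each of the 5 NF-κB subunits (left) and each of 7 IL-6 family ligands (right) takes in each library. The Nfkb2 band is wider in the siSox9 libraries (mean 39.0% against 36.9%), and in the ligand panel Lif takes 35.3% against 27.5% and Il11 takes 23.4% against 32.1%.

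Neither feedback inhibitor passed the test. Nfkbia encodes IκBα, which NF-κB induces and which returns it to the cytoplasm. Its level was 44.0, 41.4 and 40.4 FPKM with siSox9 and 45.7, 43.0 and 46.6 FPKM with siNC. The highest siSox9 library lay above the lowest siNC library. It was the only one of the 9 tested members with a log2 fold change under 0, at -0.10 with a 95% interval of -0.21 to 0.00 (limma, adjusted p = 0.122). Tnfaip3 encodes A20, a ubiquitin-editing enzyme that shuts off signalling upstream of IKK. It stood at 22.7, 23.0 and 21.8 FPKM with siSox9 and at 22, 22.5 and 22.4 FPKM with siNC. Its log2 fold change was 0.01, with a 95% interval of -0.06 to 0.09 (limma, adjusted p = 0.833), and its sign turned without siSox9 replicate 2.

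Among the cytokines, Tnf and Lif rose, Il1b did not pass the test and Il6 was near the detection limit. Tnf (ENSMUSG00000024401, chromosome 17 from 35199381 to 35202007 on the - strand) encodes tumour necrosis factor, both an inducer and a target of NF-κB. Its level was 1.85, 1.71 and 1.99 FPKM with siSox9, from 78, 71 and 78 reads. With siNC it was 1.23, 1.39 and 1.35 FPKM, from 50, 55 and 55 reads. All siSox9 libraries were above all siNC libraries. The mean was 1.40 times that of siNC, and the log2 fold change of FPKM + 1, which understates the change of a gene this low, was 0.29 ± 0.07 (SE, limma, adjusted p = 0.0155). Limma voom on the recovered reads gave 0.48 (adjusted p = 0.0397). The call was lost without siSox9 replicate 3 (adjusted p = 0.0515), without the filter on low genes (0.0554), and with voom without that filter (0.113), and over all alternatives its adjusted p ranged from 0.00941 to 0.113.

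Il1b encodes interleukin-1β, a cytokine made mainly by macrophages. Its level was 1.32, 2.17 and 1.89 FPKM with siSox9, from 65, 105 and 86 reads, and 1.44, 1.5 and 1.27 FPKM with siNC, from 68, 69 and 60 reads. siSox9 replicate 1 lay within the siNC range and the other siSox9 libraries above it. The log2 fold change was 0.21, with a 95% interval of -0.07 to 0.48 (limma, adjusted p = 0.221), and without siSox9 replicate 1 it was 0.33 and passed (adjusted p = 0.0353, with 0.0353 to 0.524 over all alternatives). Il6 encodes interleukin-6, the acute-phase cytokine. The siSox9 libraries held 3, 2 and 0 reads of it, and the siNC libraries 4, 5 and 1, which is under 0.1 FPKM in each. A difference was not detectable at this depth (exact two-sided permutation p = 0.3, where 0.1 is the smallest possible), and limma voom without a filter gave an adjusted p of 0.494.

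Because Tnf and Il1b are also leukocyte products, markers of other cell types were read in the same libraries. The summed level of 9 of the 10 listed leukocyte markers was 168 to 188 FPKM with siSox9 and 168 to 169 FPKM with siNC, mostly Lyz2 and C1qa. None of the 9 was at 0. Itgam was left out because its name is not unique among the deposited genes. Of the 8 that were tested, 1 rose, Lyz2, the lysozyme of macrophages (log2 fold change 0.21, limma, adjusted p = 0.0175), and the 7 others, among them C1qa, Csf1r and Cd68, did not pass. Lyz2 did not pass without the filter (limma, adjusted p = 0.0575). Fibroblast and smooth muscle markers summed to 660 to 713 FPKM with siSox9 and 711 to 749 FPKM with siNC, mostly Acta2, with Dcn near 0, and endothelial markers to 2.91 to 3.10 and 3.22 to 4.12 FPKM. None of the 3 fibroblast, smooth muscle or endothelial markers that reached the filter passed the main test. Col1a1 (adjusted p = 0.0360 with voom) and Acta2 (0.0212 with voom without a filter), both lower with siSox9, passed in an alternative fit. Under the filter, the endothelial marker Emcn was 38.6% lower with siSox9, with no overlap (limma without the filter, adjusted p = 0.0331). The part of these cells in the cytokine values was not tested.

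Lif (ENSMUSG00000034394, chromosome 11 from 4257557 to 4272514 on the + strand) encodes leukemia inhibitory factor, a cytokine of the IL-6 family that signals through STAT3. Its level was 56.8, 53.6 and 53.8 FPKM with siSox9 and 48.6, 43.7 and 43.8 FPKM with siNC. The lowest siSox9 library was above the highest siNC library. The means were 54.8 ± 1.81 and 45.4 ± 2.82 FPKM (SD, n = 3), with a log2 fold change of 0.27 ± 0.05 (SE, limma, adjusted p = 0.00683). The calls of Lif and of Nfkb2 held under every alternative tried, with adjusted p up to 0.0280 for Lif and 0.0129 for Nfkb2. The recovered values of Nfkb2 were not whole reads in every library, so its voom fits used rounded values.

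**Figure D3:**
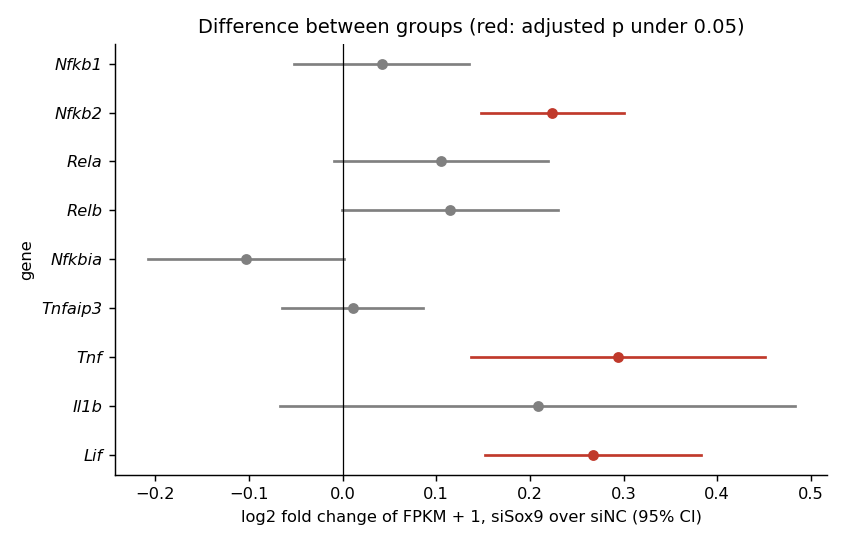
Log2 fold change of FPKM + 1, siSox9 over siNC, of the 9 members tested, with 95% confidence intervals from limma and adjusted p under 0.05 in red. The intervals of Nfkb2 (0.15 to 0.30), Tnf (0.14 to 0.45) and Lif (0.15 to 0.38) lie above 0, and that of Il1b (-0.07 to 0.48) is the widest.

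In level per exon length, the members spanned from under 0.1 to over 50 FPKM. With siNC the order of mean FPKM was Rela (45.7), Lif (45.4), Nfkbia (45.1), Nfkb2 (41.2), Tnfaip3 (22.3), Nfkb1 (14.5), Relb (8.42), Il1b (1.40), Tnf (1.32) and Il6 (0.0561). Rela, Lif and Nfkbia overlapped there, as did Il1b and Tnf. With siSox9, Lif (54.8) stood above Rela (49.3) and Nfkb2 (48.3), which overlapped, and Nfkbia (41.9) stood below all 3. Tnf (1.85) and Il1b (1.79) overlapped again, and the order from Tnfaip3 (22.5) to Relb (9.20) was as in siNC. Lif was thus by far the most abundant of the 4 cytokine transcripts in either group.

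The rest of the pathway was read from 7 lists of 89 genes, of which 75 were tested. The lists were chosen with earlier results of these data known, so their counts are descriptions and no test of the pathway. With siSox9, 27 were higher, 9 were lower and 39 did not pass, with a median log2 fold change of 0.03, where 12.8% of all genes tested were higher and 17.6% were lower. The groups did not overlap for 47 of the 75, beside 46.3% of all genes tested.

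**Figure D4:**
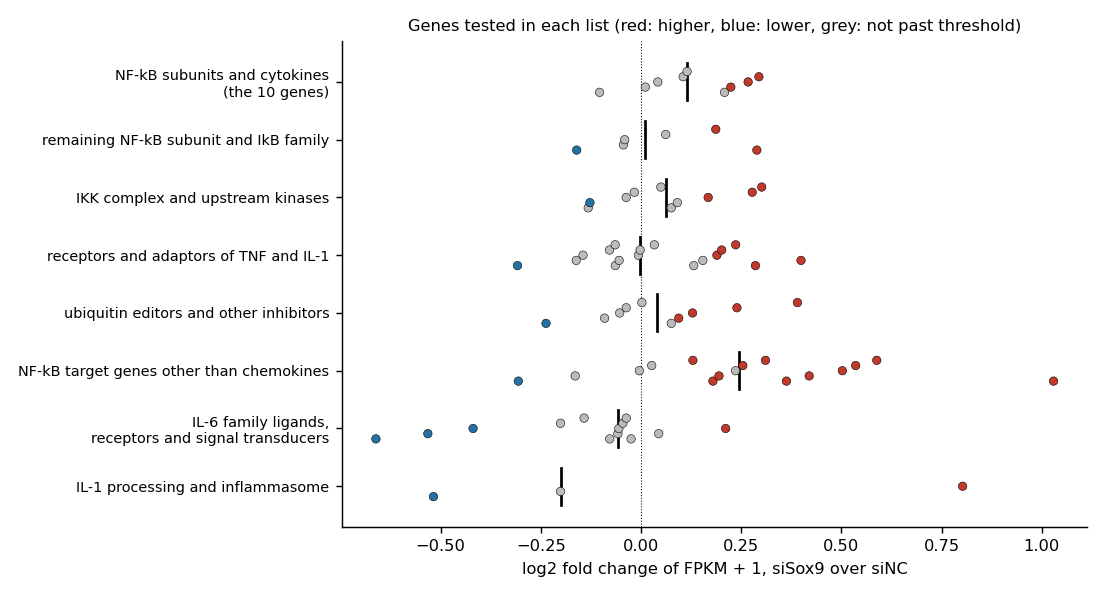
Log2 fold change of FPKM + 1, siSox9 over siNC, of each tested gene of the 10-gene set and of the 7 other lists, with genes higher in red, lower in blue and not past the threshold in grey, and the list median as a black bar. The NF-κB target genes have 11 red points of 16 and a median of 0.24, and the IL-6 family has 3 blue points, 1 red point and a median of -0.06. The lists were chosen with earlier results of these data known.

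Both TNF receptors rose. Tnfrsf1a, the receptor with a death domain, was at 27.6, 25.8 and 25.7 FPKM with siSox9 and at 23.9, 21.6 and 23.0 FPKM with siNC, with no overlap (log2 fold change 0.20, limma, adjusted p = 0.0175). Tnfrsf1b, the second receptor, was at 9.10, 9.29 and 8.55 FPKM with siSox9 and at 7.18, 6.48 and 7.97 FPKM with siNC, also with no overlap (0.29, adjusted p = 0.0194). Tnfrsf1a did not pass without siSox9 replicate 1 (adjusted p = 0.0590) or without the filter (0.0514), and Tnfrsf1b without siSox9 replicate 1 (0.0611), siSox9 replicate 2 (0.0691) or the filter (0.0664). Of the 17 tested receptors and adaptors of TNF, IL-1 and Toll-like signalling, 5 were higher, 1 was lower and 11 did not pass, with a median log2 fold change of -0.0024. These 6 calls of 17 are near the share of 30.4% called among all genes. Tlr4, the sensor of bacterial lipopolysaccharide, was 43.7% above siNC (log2 fold change 0.40, limma, adjusted p = 0.00341), and Tradd, the adaptor of Tnfrsf1a, rose as well (log2 fold change 0.24, adjusted p = 0.0118). Tlr2, the sensor of bacterial lipoproteins, fell from 11 ± 0.546 to 8.68 ± 0.272 FPKM (SD, n = 3, log2 fold change -0.31, limma, adjusted p = 0.00257).

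The chains of the IL-1 receptor lay on opposite sides of 0 and neither passed the test. Il1r1 was at 3.51 ± 0.342 FPKM with siSox9 and 3.04 ± 0.0841 FPKM with siNC (limma, adjusted p = 0.111), and it passed without siSox9 replicate 3 (0.0331) and after quantile normalization (0.0431). Il1rap was at 1.58 ± 0.0409 and 1.88 ± 0.174 FPKM (SD, n = 3, adjusted p = 0.101), and it passed with voom on the recovered reads (0.0167). The binding chains for IL-6 and LIF were low in these cells. Lifr had 0.231 to 0.413 FPKM and was 30.4% lower in mean with siSox9, with no overlap. It did not pass without the filter (adjusted p = 0.225 with limma and 0.0898 with limma voom). Il6ra had 0.216 to 0.324 FPKM, where the groups overlapped, and both genes were under the filter. Their shared signalling chain Il6st, which encodes gp130, was at 20.3 ± 0.330 FPKM with siSox9 and 20.7 ± 0.727 FPKM with siNC (limma, adjusted p = 0.628), and the sign of its log2 fold change of -0.02 turned with TPM, with median centring and without siNC replicate 3.

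Of the 6 remaining members of the NF-κB and IκB families, 2 rose, 1 fell and 3 did not pass, with 30.4% called among all genes. Nfkbie and Nfkbib, which encode IκBε and IκBβ, rose by 23.8% and 14.7% in mean FPKM (log2 fold changes 0.29 and 0.19, limma, adjusted p = 0.00731 and 0.0103). Nfkbiz, which encodes the nuclear IκBζ, a co-activator of Il6, fell from 21 ± 0.780 to 18.7 ± 0.561 FPKM (SD, n = 3, log2 fold change -0.16, limma, adjusted p = 0.0199). Nfkbiz did not pass without siSox9 replicate 2, siSox9 replicate 3 or siNC replicate 3 (adjusted p = 0.0758, 0.0607 and 0.0586) or with TPM (0.167). Exons of Nfkbib share 314 bases with Ccer2 and 42 bases with Sirt2 on the opposite strand.

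Among the IKK complex and its upstream kinases, 3 of 10 tested genes rose, 1 fell and 6 did not pass, beside 12.8% higher and 17.6% lower among all genes. Map3k14, which encodes NIK, the kinase that starts the processing of p100, was at 13.0, 13.0 and 12.6 FPKM with siSox9 and at 10.6, 10.1 and 10.1 FPKM with siNC. All siSox9 libraries were higher (log2 fold change 0.30, limma, adjusted p = 0.00115). Ikbkg, the regulatory subunit NEMO, rose too (log2 fold change 0.28, adjusted p = 0.00161), with 418 exonic bases shared with G6pdx on the opposite strand, which had a mean of 28.8 FPKM. The catalytic subunits Chuk and Ikbkb were at 0.09 and 0.08 and did not pass. Of the IKK-related kinases, Ikbke was at 5.87 ± 0.224 FPKM with siSox9 and 5.12 ± 0.239 FPKM with siNC and Tbk1 at 11.4 ± 0.264 and 12.5 ± 0.412 FPKM (SD, n = 3), with log2 fold changes of 0.17 and -0.13 (limma, adjusted p = 0.0314 and 0.0374). The calls depended on single libraries. Ikbke was lost without any 1 of the siSox9 replicates or without siNC replicate 2 or 3, and Tbk1 without any 1 of the siSox9 replicates or without siNC replicate 1 or 3, with adjusted p up to 0.0993 for Ikbke and 0.12 for Tbk1 in those fits, and both were also lost with TPM (0.0788 and 0.219) and without the filter on low genes (0.0770 and 0.0677), and Tbk1 with median centring and quantile normalization.

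Of 10 tested ubiquitin editors and other inhibitors, 4 rose, 1 fell and 5 did not pass, where all genes gave 12.8% higher and 17.6% lower. Zc3h12a, which encodes Regnase-1, a nuclease that degrades cytokine transcripts, was at 11, 10.1 and 10.3 FPKM with siSox9 and at 7.94, 7.67 and 7.62 FPKM with siNC. It was 35.1% higher in mean, with no overlap (log2 fold change 0.39, limma, adjusted p = 0.000723). Tax1bp1 and Rnf11, partners of A20, had log2 fold changes of 0.24 and 0.13 (adjusted p = 0.00724 and 0.0106), and Rnf11 did not pass with TPM (0.0574). Itch, a ubiquitin ligase that works with A20, fell from 12.3 ± 0.189 to 10.3 ± 0.0950 FPKM (SD, n = 3, log2 fold change -0.24, limma, adjusted p = 0.00168).

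Known NF-κB target genes other than chemokines held the most calls. Of 16 tested, 11 were higher, 1 was lower and 4 did not pass, where 12.8% of all genes tested were higher and 17.6% were lower. The median log2 fold change was 0.24 beside -0.01 over all genes tested. Because the list was chosen with earlier results of these data known, these counts describe the list and are no test of the pathway. Lcn2, which encodes the tubular injury marker NGAL, was at 194, 192 and 196 FPKM with siSox9 and at 89.1, 96.1 and 98.9 FPKM with siNC. It was 2.05 times as high as in siNC (log2 fold change 1.03, limma, adjusted p = 4.82e-05). Csf1, the growth factor of macrophages, was at 162, 165 and 154 FPKM against 110, 103 and 106 FPKM and Traf1, an adaptor of the TNF receptors, at 3.0, 2.77 and 2.65 FPKM against 1.71, 1.5 and 1.67 FPKM. Neither gene overlapped between the groups (log2 fold changes 0.59 and 0.54, adjusted p = 0.000128 and 0.00103). Vcam1, a leukocyte adhesion molecule, fell from 2.17 ± 0.0435 to 1.57 ± 0.0214 FPKM (SD, n = 3, log2 fold change -0.31, limma, adjusted p = 0.00491). Icam1 and Sod2, also common read-outs of NF-κB, were at 0.03 and -0.0043 and did not pass, and like Chuk and Ikbkb they were chosen after their values had been seen.

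In the IL-6 family Lif rose and another ligand, Il11, fell, and of the remaining ligands Ctf1 and Clcf1 did not pass and Il6, Osm and Cntf were under 1 FPKM. Beside Lif, of 13 tested ligands, receptors and signal transducers, 1 rose, 3 fell and 9 did not pass, with a median log2 fold change of -0.06. These 4 calls of 13 are near the share of 30.4% called among all genes. Il11, a ligand that signals through gp130 as LIF does, was at 38.5, 35.3 and 35.2 FPKM with siSox9 and at 57.0, 51.7 and 50.4 FPKM with siNC. All siSox9 libraries were lower, in contrast to Lif (log2 fold change -0.53, limma, adjusted p = 0.000708). Jak2, a kinase of these receptors, fell by 27.0% (limma, adjusted p = 0.000223) and Tyk2, a related kinase, was 18.0% higher (adjusted p = 0.0134, and 0.0518 without siSox9 replicate 2).

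Among the 7 ligands of the family, Lif took 34.9%, 34.9% and 36.2% of the summed FPKM with siSox9 and 27.3%, 27.4% and 27.7% with siNC. Every siSox9 share was higher, by 7.85 percentage points on average. Il11 took 23.6%, 23.0% and 23.6% with siSox9 and 31.9%, 32.4% and 31.9% with siNC, a share that dropped by 8.67 percentage points on average. Both had an exact two-sided permutation p of 0.1, the smallest possible. The largest share in both groups was that of Clcf1, at 39.2 ± 1.04% and 38.3 ± 0.462% (SD, n = 3), where the groups overlapped (exact permutation p = 0.3), and Il6 took at most 0.0535% in any library. The rise in the share of Lif was larger than the spread between replicates. It holds the fall of Il11 as well as the rise of Lif, because a share rises when another ligand of the sum falls.

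Of the genes for IL-1 processing and the inflammasome, most were at low levels. Casp1, Nlrp3, Pycard and Il18 did not reach 1 FPKM. Il33, an alarmin of the IL-1 family, was at 0.673, 0.819 and 0.682 FPKM with siSox9 and at 1.58, 1.28 and 1.56 FPKM with siNC, lower in every siSox9 library (log2 fold change -0.52, limma, adjusted p = 0.00372). Its receptor Il1rl1 was at 46.7, 46.0 and 47.9 FPKM with siSox9 and at 25.6, 26.0 and 27.8 FPKM with siNC, higher in every siSox9 library (log2 fold change 0.80, adjusted p = 5.94e-05).

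Of the called members, Tnf had the largest log2 fold change, and the genes most like it over the 6 libraries were Nedd4, Psmd10 and Pfdn4, with a Pearson r of log2(FPKM + 1) of 0.999, 0.997 and 0.995. These are descriptions over 6 points that share 2 groups, and 772 genes had an r over 0.9 with Tnf.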

How the data were processed

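The data are 6 RNA-Seq libraries of primary TECs. For each library the authors deposited FPKM values, with no further scaling stated. The submitters' processing notes name Bowtie2 2.2.3, HISAT2 2.1.0, TopHat2 and mm9 with no role, while 93.3% of the gene positions shared with GENCODE M21 are those of GRCm38. The counting tool and its strand setting are not given in the sources used here. The siSox9 columns carry the name of the siRNA that is not the control, and 25 gene names had been turned into dates. Sequences come from RefSeq.

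Whole reads were recovered from the FPKM values with GENCODE M21 exon lengths (93.3% of values within 0.02 of a whole number). Groups were compared with limma 3.58.1 in R 4.3.3 (lmFit, then eBayes with its trend option). Genes averaging 1 FPKM or more were tested on log2(FPKM + 1), with Benjamini-Hochberg adjustment over all genes tested and a threshold of 0.05. A fold change on this scale understates that of low genes. Limma voom on recovered reads was an alternative, and its form without a filter was added after seeing the data. Genes whose recovered values were not whole in every library, among them Nfkb2, Rela, Il11, Krt18 and Acta2, entered voom as rounded values. The other alternatives were quantile-normalized values, median centring, TPM, a pseudocount of 0.1, all genes or those above 5 FPKM, a replicate block and leaving out each library. Levels, shares and exact tests used Python 3.11.15 and scipy 1.17.1. On simulated reads of 11995 genes, limma called 98 of 99 genes changed by 2-fold and 36 of 100 changed by 1.25-fold. It also called 14 unchanged genes. Limma voom called 97 of 99 and 68 of 100, with 10 unchanged genes. The simulation gave every gene the same dispersion and changed far fewer genes than were called in the data, so these rates may not hold for the data. Read recovery was tested too.

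The genes and lists were chosen with earlier results of these data known. Named are all 10 genes, Sox9, the receptors of the 4 cytokines, Rel and, per list, up to 3 largest rises and 3 largest falls past the threshold with no overlap between the groups. 1 gene that this rule names is not reported here.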

Additional observations from a re-analysis of the deposited data

How the results depend on the processing

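Nfkb2 and Lif kept their direction and their call under all alternatives. Tnf kept its direction, with 0.26 to 0.33 when single libraries were left out, and lost its call without siSox9 replicate 3, without a filter (0.29, adjusted p = 0.0554) and with voom without a filter (0.48, adjusted p = 0.113). Leaving out single libraries gave 0.073 to 0.15 for Rela, 0.11 to 0.33 for Il1b, -0.0045 to 0.031 for Tnfaip3 and -0.042 to 0.0025 for Il6st, where Rela passed without siSox9 replicate 3, Il1b without siSox9 replicate 1, and the signs of Tnfaip3 and Il6st turned without siSox9 replicate 2 and siNC replicate 3. Il6st was at 0.0032 with TPM and 0.0017 after median centring. Over the alternatives the adjusted p ranged from 0.00461 to 0.0590 for Tnfrsf1a, 0.00283 to 0.0691 for Tnfrsf1b, 0.0331 to 0.296 for Il1r1, 0.0167 to 0.294 for Il1rap, 0.00607 to 0.167 for Nfkbiz, 0.00767 to 0.0993 for Ikbke, 0.0327 to 0.219 for Tbk1, 0.00485 to 0.0574 for Rnf11 and 0.00219 to 0.0518 for Tyk2. Over all genes, 2424 to 3654 passed and 944 to 1565 were higher with single libraries left out (fewest without siSox9 replicate 2), and 1376 were lower with a minimum of 5 FPKM, which tests fewer genes, and 1332 with TPM, where the cause was not tested. No pairing by replicate number was seen (correlations of same-numbered deviations of 0.06, -0.05 and 0.01, beside -0.08 to 0.09 for other pairs). With 3 libraries per group these values cannot settle whether libraries of the same number shared a culture. With a replicate block 3262 genes passed, the same 3 members were higher (adjusted p of 0.0100 for Nfkb2, 0.0387 for Tnf and 0.0054 for Lif) and Tbk1 no longer passed (0.0688). The few reads of Il6, Tnf and Il1b limit what these libraries can show, and reads cover counting error only.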
